A study of Mus musculus with 18 samples.

Results

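Chemokines are small secreted proteins that direct the movement of leukocytes, and 10 of them were followed here through cells, nuclei, tissue sections and bulk RNA of the mouse urinary bladder: Cxcl1, Cxcl2, Cxcl10, Cxcl12, Cxcl13, Cxcl14, Ccl2, Ccl7, Ccl11 and Ccl17. They were chosen by name, with earlier results of these data known, as 10 of the 29214 genes in the bulk table. Each was detected in every one of the 18 samples. A further 26 chemokines and 22 chemokine receptors served as lists for comparison.

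All animals were C57BL/6 mice, and the labels name no genotype and no treatment. Of 5 single-cell libraries of whole bladder, the 22-month and the 3-month library each came from 3 males. The other 3 came from 2 females and 2 males each, with 2 libraries of 12 months and 1 of 24 months. One library of single nuclei came from whole bladder of 12 months (2 females and 2 males). The layer of smooth muscle that empties the bladder, the detrusor, was profiled in 1 library of the detrusor alone (14 months, 3 females) and in 1 library of whole bladder enriched for it (14 months, 2 females and 2 males). The spatial data were 2 frozen Visium sections of 22 months and 2 of 14 months from males, in which RNA is captured by barcoded spots that can each cover several cells. The bulk data were 3 libraries of intact bladder and 3 of dissociated bladder, all of 12-month females, and RNA of both preparations was extracted from homogenates with the same kit. The droplet libraries are pools of animals, and the labels do not say whether the bulk libraries or the sections of one kind came from separate animals. P-values therefore measure only the spread between these samples, which may be technical.

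The chemokine family is divided by the spacing of its first cysteines into CC and CXC members, which signal through receptors that couple to G proteins. Cxcl1 and Cxcl2 attract neutrophils through Cxcr2, Ccl2 and Ccl7 attract monocytes through Ccr2, Cxcl10 attracts activated T and NK cells through Cxcr3, and Cxcl13 guides B cells through Cxcr5. Ccl11 acts on eosinophils through Ccr3, Ccl17 acts on T cells through Ccr4, Cxcl12 retains and positions Cxcr4-bearing cells and is scavenged by Ackr3, and the signalling receptor of Cxcl14 is not settled. Several of these genes are made continuously by stromal cells, whereas others are known for rapid induction by cytokines and injury.

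In GRCm38.p6, Cxcl1 (chr5:90891245-90893121) and Cxcl2 (chr5:90903899-90905938) lie side by side, with Cxcl10 (chr5:92346638-92348889) and Cxcl13 (chr5:95956939-95961068) farther along the chromosome. Ccl2 (chr11:82035577-82037452), Ccl7 (chr11:82045712-82047525) and Ccl11 (chr11:82057832-82062955) form a second cluster. Cxcl12 (chr6:117168535-117181368), Ccl17 (chr8:94809380-94812038) and Cxcl14 (chr13:56288643-56296811) each lie on a chromosome with no other of the chemokines followed here. Whether other chemokine genes lie near them was not examined. The 250 bases before the start of transcription are printed for 3 genes that rose 41.0-fold to 519-fold in dissociated bladder and for Cxcl12, which rose 1.7-fold, from the RefSeq promoter table of this build. They cover chr5:90890995-90891244 (plus strand), chr5:90903649-90903898 (plus strand), chr5:92348890-92349139 (minus strand) and chr6:117168285-117168534 (plus strand). Capitals mark matches to the motifs named after the sequences.
Cxcl1: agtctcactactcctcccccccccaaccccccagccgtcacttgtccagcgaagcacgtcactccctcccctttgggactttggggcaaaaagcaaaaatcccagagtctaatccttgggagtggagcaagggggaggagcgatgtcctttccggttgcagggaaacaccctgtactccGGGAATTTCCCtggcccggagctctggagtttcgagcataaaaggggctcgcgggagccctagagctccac
Cxcl2: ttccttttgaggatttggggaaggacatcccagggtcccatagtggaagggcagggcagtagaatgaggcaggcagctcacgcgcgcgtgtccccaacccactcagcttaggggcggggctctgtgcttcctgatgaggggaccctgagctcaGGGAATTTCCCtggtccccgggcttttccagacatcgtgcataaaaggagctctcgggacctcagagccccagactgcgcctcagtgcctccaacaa
Cxcl10: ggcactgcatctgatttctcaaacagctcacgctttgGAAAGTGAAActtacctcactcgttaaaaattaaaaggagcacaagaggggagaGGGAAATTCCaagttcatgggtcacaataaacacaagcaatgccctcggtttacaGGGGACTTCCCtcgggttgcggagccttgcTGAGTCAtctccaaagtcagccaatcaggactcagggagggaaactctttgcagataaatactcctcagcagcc
Cxcl12: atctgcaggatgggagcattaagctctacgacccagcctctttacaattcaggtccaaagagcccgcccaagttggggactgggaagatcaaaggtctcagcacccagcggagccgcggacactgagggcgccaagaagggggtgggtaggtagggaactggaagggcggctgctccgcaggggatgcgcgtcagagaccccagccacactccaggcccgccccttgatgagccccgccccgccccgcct
The NF-kappaB motif, searched by name on both strands, matched 3 of the 7 members with a promoter in the table, which were Cxcl1, Cxcl2 and Cxcl10. It matched 7.25% of the 32851 promoters of the same length. Overlapping matches on both strands spanned bases 71 to 61 before the start of Cxcl1 and bases 97 to 87 before that of Cxcl2, and they read GGGAATTTCCC in both genes. Cxcl10 had matches at bases 159 to 150 and 104 to 94. The ISRE motif, searched by name, matched Cxcl10 (bases 213 to 204) and Cxcl14, against 2.98% of promoters, and the AP-1 letters TGANTCA matched Cxcl10 alone (bases 74 to 68), against 6.75%. The letters TATAAA matched Cxcl13 alone, against 12.4%, and none of the 4 motifs matched Cxcl12. A match describes letters in this window and not a bound site. The windows of Cxcl14 and Ccl17 in the table lie inside the gene spans given above, before another start, and are not printed. The promoters of Ccl2, Ccl7 and Ccl11 were not analysed here.

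Depth and composition differed between libraries in ways that touch these genes. After filters, 948 to 8420 cells or nuclei per library remained, with median UMI counts (unique molecular identifiers, the counted molecules) of 1106 for nuclei, 1805 and 2460 for the male libraries and 8211 to 15819 for the other cell libraries. The sections held 937 to 1317 spots and 21975462 to 32020077 UMIs, and the bulk libraries held 23083752 to 68760791 reads. Cell classes were rebuilt from clusters made without any chemokine gene and are called after the markers they carry, so that fibroblast-like cells made up 69.3% and 59.7% of the 22-month and 3-month male libraries but 14.8% to 25.0% of the 3 mixed-sex libraries of whole-bladder cells, 12.3% of the nuclei and 45.4% of the detrusor-enriched library. The second 12-month library stands apart, with 948 cells, no cluster named as macrophage-like and the highest levels of several chemokines in its fibroblast-like cells. Libraries shared at most 1.00% of the barcodes of the smaller one.

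The first question was which class of cells holds each transcript. Fibroblast-like cells (Col1a1, Dcn, Pdgfra) held nearly all UMIs of 3 members over the 5 whole-bladder cell libraries: 96.7% of Cxcl14 (exact 95% binomial interval 96.6 to 96.8), 93.7% of Cxcl12 (93.3 to 94.0) and 93.5% of Ccl11 (92.6 to 94.3). The Cxcl14 share was 93.4% with doublets kept, 92.6% with finer clustering and 93.7% with each cell called on its own, all outside its interval. Dendritic-like cells held 93.4% of Ccl17 (92.3 to 94.3). Fibroblast-like cells also held 77.4% of Cxcl1 (75.9 to 78.9), while macrophage or monocyte-like cells (C1qa, Csf1r, Adgre1; macrophage-like for short) held 76.7% of Cxcl2 (75.9 to 77.6). By library the macrophage-like share of Cxcl2 ran from 0 to 92.2%; in the first 12-month library dendritic-like cells held 50.2% and macrophage-like cells 39.9%, and in the second 12-month library 62.9% lay in unnamed cells. The neighbouring genes Cxcl1 and Cxcl2 thus had different leading classes in the pool and in each library, with fibroblast-like cells leading for Cxcl1 in 5 of 5. Ccl2 was held to 45.2% by macrophage-like and 33.4% by fibroblast-like cells, and Ccl7 to 39.8% and 44.5%. In single libraries the macrophage-like share of Ccl2 ran from 0 to 80.0%, and the fibroblast-like share of Ccl7 from 24.5% to 69.3%. The second 12-month library, with no cluster named as macrophage-like, had 28.9% of its Ccl2 UMIs and 21.0% of its Ccl7 UMIs in unnamed cells. Without it, a setting chosen after the data were seen, macrophage-like cells held 54.5% of Ccl2 and 49.5% of Ccl7, fibroblast-like cells 26.9% and 38.4%, and the order for Ccl7 turned. Without the 3-month male library the order for Ccl2 turned, with 39.9% in fibroblast-like and 34.8% in macrophage-like cells. Cxcl13 was held to 57.9% by macrophage-like and 38.4% by fibroblast-like cells, and Cxcl10 to 44.5% by fibroblast-like and 15.8% by urothelial-like cells. The macrophage-like share of Cxcl13 ran from 0 to 90.1% by library, and without the 3-month male library fibroblast-like cells led with 68.7% against 26.2%. Fibroblast-like cells led for Cxcl10 in each library but the 3-month male, where macrophage-like cells held more than the 32.7% of fibroblast-like cells. In all, 7 of the 10 members had most of their pooled UMIs in 1 class, a class that for Cxcl13 depends on the 3-month male library, and Ccl2 joined them without the second 12-month library. These shares move with the number of cells of a class, and the intervals cover counting error only. Only the 24-month whole-bladder library had a smooth muscle-like class, of 19 cells, which held 10.6% of that library's Ccl11 UMIs beside 83.6% in fibroblast-like cells. By contrast, the smooth muscle-like class made up 40.1% of the nuclei. In the nuclei it held 44.9% of Cxcl14, the largest share, at 61.8 CPM against 135.0 in fibroblast-like nuclei. Fibroblast-like nuclei held 47.2% of Cxcl12, at 270.1 CPM against 297.6 in blood endothelial-like nuclei.

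**Figure D1:**
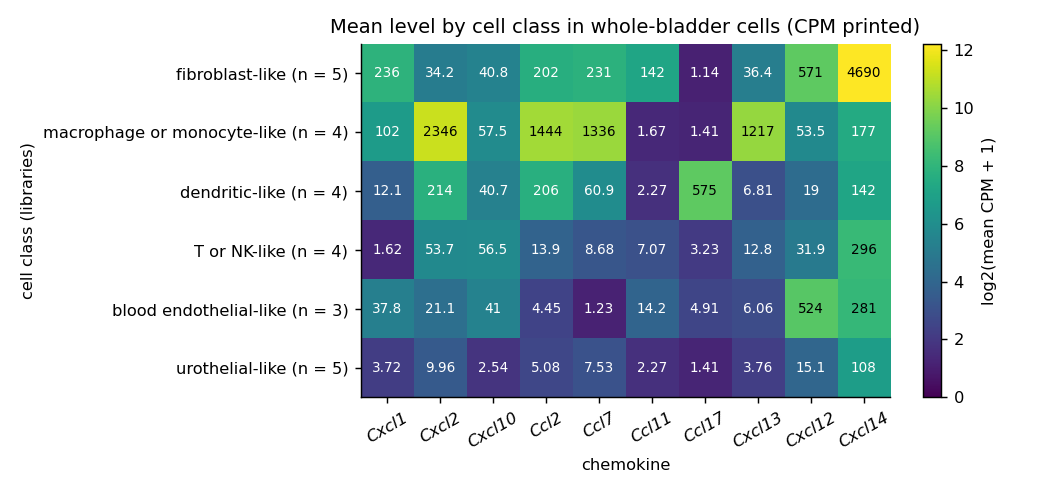
Mean level of each of the 10 chemokines (CPM, counts scaled to 1000000 UMIs; colours give log2 of CPM + 1) in the 6 cell classes compared, averaged over the whole-bladder cell libraries that hold at least 20 cells of the class. Cxcl14, Cxcl12 and Ccl11 were highest in fibroblast-like cells, Cxcl2, Ccl2, Ccl7 and Cxcl13 in macrophage-like cells, and Ccl17 in dendritic-like cells (mean 575.1 CPM).

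Levels per class were compared with sums of counts per class and library, each of 6 classes against the mean of the other 5 within 1 fit that held the library as a block. The classes were formed from the other genes of the same cells. Several sums held 0 counts of a gene, and fitted differences against them depend on the small count that edgeR adds. Of 11651 genes tested in macrophage-like cells, 24.8% passed an adjusted p of 0.05 (edgeR's quasi-likelihood test with Benjamini-Hochberg adjustment) in either direction and 17.0% were higher. Lower genes made up 7.87%. Of the 10 members, 6 were higher and 1 was lower, with a median log2 difference of 2.77 against -0.03 over all genes. In fibroblast-like cells 5 members were higher and 2 lower (49.8% of genes passed, 35.6% higher), with a median of 1.60 against 0.23. In dendritic-like cells 3 were higher and 1 was lower (31.3% of genes passed, 20.3% higher). In urothelial-like cells, the lining epithelium, none was higher and 9 were lower, all but Ccl7 (53.2% of genes passed, 25.0% lower). Of these 9, Ccl2 did not pass without the 3-month male library (log2 difference -4.22, adjusted p = 0.1). Without the 22-month male library Cxcl1, Ccl11 and Ccl17 did not pass either (log2 differences -2.93, -1.91 and -1.43). Their SEs there were 7288.47, 383.25 and 91.61, so that these fits cannot show whether the calls depend on that library. Cxcl13 lost its call without the 3-month male (adjusted p = 0.37), the first 12-month (0.13), the second 12-month (0.067) or the 24-month library (0.1), and also with doublets kept (0.052) or each cell called on its own (0.071). Cxcl14 lost its call without the library block (-1.96, adjusted p = 0.11) and Ccl2 with at least 1000 UMIs per cell (-3.91, adjusted p = 0.087).

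Among the neutrophil attractants, Cxcl2 stood at 3164 CPM in macrophage-like cells of the 22-month male library, 3443 in the 3-month male, 1864 in the first 12-month and 913.7 in the 24-month library. Its level in fibroblast-like cells was 19.2, 17.4, 2.53, 121.6 and 10.1 CPM in the 22-month male, 3-month male, first and second 12-month and 24-month libraries. The ranges did not overlap, and the log2 difference was 6.63 (SE 0.51, adjusted p = 2.7e-08, edgeR) for macrophage-like and -2.44 (SE 0.72, adjusted p = 0.01) for fibroblast-like cells; the latter lost its call without the 22-month male library (-2.14, adjusted p = 0.081) and without the block (-1.38, adjusted p = 0.18). Dendritic-like cells were higher for Cxcl2 too (log2 difference 3.12, SE 0.63, adjusted p = 0.001), at 76.8 to 417.5 CPM. Cxcl1 was higher in both fibroblast-like cells (log2 difference 2.76, SE 0.47, adjusted p = 0.00012) and macrophage-like cells (3.65, SE 0.53, adjusted p = 4.9e-05). Its fibroblast-like levels were 49.1, 48.2, 133.1, 861.1 and 87.1 CPM in the same order of libraries, so that the second 12-month library exceeded the others by several-fold. Its macrophage-like levels lay between 75.2 and 141.4 CPM, within the range of the fibroblast-like levels. In the 22-month male library, 35 Schwann-like cells (390.8 CPM) and the pericyte-like cells (228.0 CPM), outside the 6 classes compared, were above its fibroblast-like cells for Cxcl1.

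Ccl2 and Ccl7, the monocyte attractants, were highest in macrophage-like cells. Ccl2 stood there at 825.8, 1336, 2410 and 1203 CPM in the 22-month male, 3-month male, first 12-month and 24-month libraries, and Ccl7 at 661.0, 1003, 2732 and 947.5 CPM. The log2 differences were 6.41 (SE 0.43, adjusted p = 4.4e-09) and 6.86 (SE 0.46, adjusted p = 3.9e-09). In fibroblast-like cells Ccl7 stood at 69.3, 50.03, 118.8, 863.3 and 52.1 CPM and Ccl2 at 44.0, 28.3, 99.4, 751.3 and 87.1 CPM, again highest in the second 12-month library. Ccl7 passed there (log2 difference 1.86, SE 0.62, adjusted p = 0.02), but the adjusted p was 0.051 without the 22-month male library (3.22), 0.051 without the 3-month male (1.97), 0.11 without the first 12-month (1.54) and 0.083 without the 24-month library (1.75). Without the second 12-month library the difference was 1.32 and still passed. Ccl2 was higher in dendritic-like cells as well (log2 difference 3.11, SE 0.50, adjusted p = 0.00013), at 140.1 to 245.9 CPM. In blood endothelial-like cells (25.4% of genes passed, 14.2% higher and 11.2% lower), Ccl2 (-4.03, adjusted p = 0.042) and Ccl7 (-5.27, adjusted p = 0.043) were lower in the full fit. Ccl2 lost that call when any one of the 22-month male, 3-month male, first 12-month or 24-month library was left out (adjusted p from 0.062 to 0.19), and Ccl7 without the 22-month male (-10.35, adjusted p = 0.22), the 3-month male (-4.64, adjusted p = 0.21) or the 24-month library (-5.08, adjusted p = 0.11). Size factors of the RLE kind ended both calls (adjusted p = 0.061 and 0.06), doublets kept ended that of Ccl2 (0.053) and a minimum of 1000 UMIs that of Ccl7 (0.058).

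Cxcl10, the interferon-induced ligand of Cxcr3, was spread over classes. Mean levels were 57.5 CPM ± 14.1 (SD, n = 4 libraries) in macrophage-like, 56.5 ± 25.1 (n = 4) in T or NK-like, 41.0 ± 29.5 (n = 3) in blood endothelial-like, 40.8 ± 31.7 (n = 5) in fibroblast-like and 40.7 ± 16.8 (n = 4) in dendritic-like cells, and the ranges of these 5 classes overlapped. Urothelial-like cells were lowest of the 6 classes at 2.54 CPM ± 0.714 (n = 5; log2 difference -4.48, SE 0.57, adjusted p = 3.9e-06, edgeR). Within fibroblast-like cells the male libraries stood at 6.38 and 8.95 CPM and the mixed-sex libraries at 48.1 to 74.3, a split that goes with sex, barcode design and depth at once; these cannot be told apart. The macrophage-like excess (log2 difference 1.90, SE 0.54, adjusted p = 0.015) did not pass without the 3-month male (1.49, adjusted p = 0.15) or the 24-month library (1.91, adjusted p = 0.051).

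Ccl11, the eosinophil attractant, stood in fibroblast-like cells at 95.1, 105.0, 100.6, 317.5 and 89.6 CPM in the 22-month male, 3-month male, first and second 12-month and 24-month libraries, against 0 to 6.69 CPM in macrophage-like cells (log2 difference of fibroblast-like cells 5.02, SE 0.44, adjusted p = 3e-08, edgeR). The other 4 libraries lay close together below the second 12-month library. Pericyte-like cells, the mural cells of small vessels, reached 202.0 CPM in the 22-month male library, the only whole-bladder library with such a class. Ccl17 stood in dendritic-like cells at 1130, 427.3, 329.4 and 413.7 CPM in the 22-month male, 3-month male, first 12-month and 24-month libraries, whereas its means in the other 5 classes lay between 1.14 and 4.91 CPM. The log2 difference was 8.59 (SE 0.20, adjusted p = 5.8e-24). Fibroblast-like cells were lower for Ccl17 (-2.39, adjusted p = 1.7e-05, edgeR). Without the 22-month male library the fit gave -2.13 with an SE of 505.22, so it cannot show whether that call depends on this library. Macrophage-like cells passed as lower by a small margin (-1.59, adjusted p = 0.049), with 0.36 (adjusted p = 0.94) without the 22-month male library, -1.57 (0.091) without the first 12-month and -1.38 (0.16) without the 24-month library. That call was also lost with DESeq2 (adjusted p = 0.13), without the block (0.58), with doublets kept (0.11), at the finer clustering (0.077) and with each cell called on its own (0.098), and with at least 1000 UMIs per cell it passed as higher (3.02, adjusted p = 0.00072). Within the dendritic-like cells of the 22-month male library, Ccl17 was at 1633 CPM in a cluster of 266 cells led by Ccl17, Cd209a and H2-DMb2 and at 166 CPM in one of 133 cells led by Xcr1 and Hepacam2. In the first 12-month library it was at 381.2 CPM in 112 cells led by Retnla, Il1b and Cd209a and at 0 in the other 13 cells.

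Cxcl12 stood at 828.3, 686.3, 311.6, 507.0 and 522.9 CPM in fibroblast-like cells of the 22-month male, 3-month male, first and second 12-month and 24-month libraries, whereas blood endothelial-like cells of the 22-month male, 3-month male and 24-month libraries held 661.3, 439.9 and 472.2 CPM. Both classes were higher than the rest (log2 differences 4.02, SE 0.31, adjusted p = 8.4e-09 and 2.88, SE 0.40, adjusted p = 3.2e-05, edgeR), and their ranges overlapped each other. Dendritic-like cells were lower for Cxcl12 in the full fit (-1.96, adjusted p = 0.007) but not without the 3-month male (-1.92, adjusted p = 0.053) or the 24-month library (-1.57, adjusted p = 0.058), nor with doublets kept (-1.25, adjusted p = 0.11). It was also the only member called in T or NK-like cells (-1.83, adjusted p = 0.035; 23.7% of genes passed), a call that did not hold without the 3-month male (-1.83, adjusted p = 0.15), the first 12-month (-1.60, adjusted p = 0.11) or the 24-month library (-1.60, adjusted p = 0.1). It was also lost under 5 other settings, with adjusted p from 0.057 (RLE size factors) to 0.26 (doublets kept). Cxcl14 stood in fibroblast-like cells at 5395, 10590, 2763, 1624 and 3078 CPM in the same order of 5 libraries (log2 difference 5.96, SE 0.34, adjusted p = 2.1e-10). In urothelial-like cells it stood at 276.0 and 220.1 CPM in the male libraries and at 15.01, 4.28 and 25.1 in the mixed-sex libraries. The male libraries are those with the larger fibroblast-like share of cells, and the part of RNA free in the droplets was not tested.

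Cxcl13, the B cell attractant, differed widely between libraries. Macrophage-like cells held 56.9 CPM in the 22-month male library but 2468 in the 3-month male, 546.4 in the first 12-month and 1797 in the 24-month library (log2 difference 7.70, SE 0.74, adjusted p = 4.1e-07, edgeR). The 22-month male library was instead the highest in fibroblast-like cells, at 102.6 CPM against 29.7 in the 3-month male, 9.26 and 12.9 in the 12-month libraries and 27.4 in the 24-month library. Fibroblast-like cells therefore held 92.6% of the Cxcl13 UMIs of the 22-month male library, and macrophage-like cells held 90.1% of those of the 3-month male library. Within the 3-month male library the Cxcl13 of macrophage-like cells lay in 344 cells led by C1qa and Retnla (2746 CPM), with 0 in the other cluster.

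The fibroblast-like class itself was divided. In each of the 6 cell libraries with both kinds, some clusters had Car3, a carbonic anhydrase, among their 10 leading genes, and others had Pi16 or Clec3b, markers of adventitial fibroblasts. They are called Car3 clusters and Pi16 or Clec3b clusters here. The rule asks for no more than this, so that the latter kind also holds clusters with other genes in the lead, and in the 22-month male library 810 cells met neither rule. This grouping was chosen after the values were seen and is given without a test. Cxcl14 was higher in the Car3 clusters in 6 of 6 libraries, at 4591 to 14960 CPM (median 6210) against 78.3 to 804.7 (median 320.6). Ccl11 went the other way in 6 of 6, at 1.00 to 6.52 CPM in the Car3 clusters and 166.6 to 471.0 in the Pi16 or Clec3b clusters. The ranges of both genes stood apart with no overlap.

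Cxcl1 (medians 141.8 against 32.4 CPM), Ccl2 (117.4 against 17.8), Ccl7 (143.5 against 20.6) and Cxcl13 (42.0 against 3.40) were also higher in the Pi16 or Clec3b clusters in 6 of 6 libraries. Cxcl12 was higher there in 5 of 6 (565.8 against 340.7). Cxcl10 was higher in the Car3 clusters in 5 of 6 libraries (107.5 against 9.20). Cxcl2 was higher in the Car3 clusters in 2 and in the others in 4 of 6 libraries (medians 12.3 against 17.6 CPM), and Ccl17 stood at 0 to 4.98 CPM in both kinds. Within the Pi16 or Clec3b clusters of the 22-month male library (2797 cells), some carried several members at once. One of 97 cells, led by Tnfaip6, Has1 and Ptx3, held 1757 CPM of Ccl11, 722.2 of Cxcl1, 686.3 of Ccl7, 646.8 of Ccl2 and 549.8 of Cxcl13. Another of 899 cells, led by Sult1e1 and Penk, held 1826 CPM of Cxcl12 and 661.1 of Cxcl13. A cluster of 60 cells led by the interferon-induced Ifit3, Ifit1 and Isg15 belongs to the same group.

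**Figure D2:**
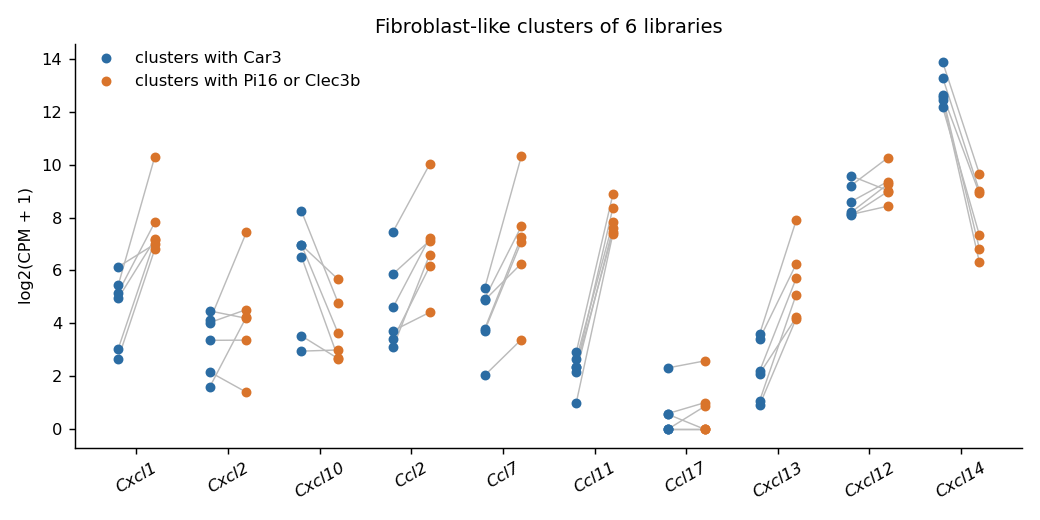
Level of each chemokine, as log2(CPM + 1), in the clusters of fibroblast-like cells with Car3 and in those with Pi16 or Clec3b among the 10 leading genes, with 1 point per library for 6 cell libraries. Cxcl14 is higher in the Car3 clusters of every library plotted (median 6210 against 320.6 CPM), and Ccl11 is higher in the others (208.1 against 4.06 CPM).

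The detrusor libraries, 1 of each kind and thus with no test, set the layers side by side, the first in females and the second in mixed sex. The library of the detrusor alone held 369 smooth muscle-like cells and no urothelial-like class. None of its fibroblast-like clusters had Car3 among the 10 leading genes, and Cxcl14 stood at 56.7 CPM in 3157 fibroblast-like cells against 3267 CPM in 2339 such cells of the detrusor-enriched whole bladder. Cxcl12 stood at 1671 against 392.8 CPM and Ccl11 at 191.5 against 87.9, both higher in the detrusor alone, while Cxcl10 stood at 1.58 against 158.1 CPM. Cxcl1 was nearly level at 90.6 and 99.6 CPM. Pericyte-like cells, which these libraries held in larger numbers (161 and 121 cells), had Cxcl1 at 565.9 and 777.5 CPM, Ccl11 at 535.2 and 826.6 CPM and Cxcl12 at 724.9 and 640.0 CPM. Schwann-like cells, the glia of nerves, had Cxcl1 at 218.4 and 704.6 CPM. Macrophage-like cells of these libraries had Cxcl2 at 2981 and 5002 CPM, Ccl2 at 713.0 and 1547 CPM and Ccl7 at 682.5 and 1281 CPM. Dendritic-like cells had 4429 and 3116 CPM of Cxcl2 and 6.62 and 36.3 CPM of Ccl17, beside 329.4 to 1130 CPM in the whole-bladder libraries. The clusters behind these values differ: that of the detrusor alone was led by Tnip3, Il1b and Lyz1, that of the enriched library by Il1b, H2-Ab1 and Retnla, and the Ccl17-rich ones of the male libraries by Ccl17, Cd209a, H2-Oa and H2-DMb2. Those of the first 12-month library (Retnla, Il1b and Tnip3) and of the 24-month library (Il1b, Retnla and Plbd1) shared leading genes with the detrusor ones, and the class held 329.4 and 413.7 CPM of Ccl17 there. Age and preparation differ as well, and the parts of these cannot be told apart.

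Receptors of the members were compared over the same 6 classes. Ccr2, the receptor of Ccl2 and Ccl7, averaged 276.2 CPM in dendritic-like, 239.9 in T or NK-like and 109.7 in macrophage-like cells, and passed as higher in all 3 (log2 differences 5.21, 4.11 and 3.69). Cxcr3, the receptor of Cxcl10, averaged 234.2 CPM in T or NK-like cells (log2 difference 7.29, adjusted p = 4.6e-16, edgeR), and passed as higher in dendritic-like (3.19, adjusted p = 0.00016) and macrophage-like cells (2.68, adjusted p = 0.0078) too. Cxcr4, the receptor of Cxcl12, was higher in macrophage-like (4.24), T or NK-like (2.66) and dendritic-like cells (2.58), and its scavenger Ackr3 in fibroblast-like (3.84) and blood endothelial-like cells (3.44). Of the 6 classes, the 2 higher in Cxcl12 were thus also the 2 higher in Ackr3. Lymphatic endothelial-like cells, outside these 6, held 361.1 and 379.1 CPM of Ackr3 in the 22-month and 3-month male libraries. Cxcr5 was seen at 195.0 CPM in the B-like cells of 1 library, while Cxcr2 reached at most 0.214 CPM and Ccr3 at most 1.35 CPM as a mean in any class. Ccr4, the receptor of Ccl17, was too low to be tested and averaged 5.77 CPM in T or NK-like cells (0 to 11.2 over 4 libraries), with 0 in dendritic-like cells.

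The next question was how preparation changes these transcripts, since the bulk libraries compared intact with dissociated bladder. Of 16538 genes tested, 59.2% passed (58.9% by DESeq2), with 27.9% higher and 31.3% lower after dissociation. All 10 members were tested, and 9 were higher and none lower, with a median log2 fold change of 3.89 against -0.03 over all genes. Members and gene lists were chosen with earlier results of these data known, so such counts describe them and do not test them as sets. In bulk tissue a change in the number of cells of a type and a change in RNA per cell cannot be told apart.

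The neutrophil attractants changed most. Cxcl1 was at 0.0866, 0.131 and 0.154 CPM in the intact and at 78.6, 75.9 and 34.5 CPM in the dissociated libraries, and Cxcl2 at 0.0866, 0.0727 and 0.115 against 33.3, 37.5 and 26.7 CPM. The intact values rest on 15 and 10 reads over the 3 libraries. Both groups were far apart, since the lowest dissociated library exceeded the highest intact one 224-fold for Cxcl1 and 232-fold for Cxcl2. The fitted folds were 519 (log2 9.02, SE 0.48, adjusted p = 7.2e-06) and 393 (log2 8.62, SE 0.22, adjusted p = 5.4e-07, edgeR).

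The monocyte attractants and Cxcl10 rose by smaller factors. Ccl2 was at 1.13, 0.567 and 1.04 CPM in intact and 45.2, 47.4 and 30.5 CPM in dissociated bladder, a 52.6-fold rise (log2 5.72, SE 0.29, adjusted p = 6e-06). Ccl7 was at 0.693, 0.931 and 0.769 against 33.5, 35.8 and 24.3 CPM, a 40.7-fold rise (log2 5.35, SE 0.20, adjusted p = 1.5e-06). Cxcl10 was at 0.953, 1.82 and 2.19 against 69.8, 64.0 and 59.7 CPM, a 41.0-fold rise (log2 5.36, SE 0.22, adjusted p = 2.4e-06, edgeR). The lowest dissociated library exceeded the highest intact one 27.1-fold for Ccl2, 26.1-fold for Ccl7 and 27.2-fold for Cxcl10.

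Ccl11 and Ccl17 rose less than these. Ccl11 was at 8.49, 8.29 and 9.08 CPM in intact and 36.0, 35.8 and 32.1 CPM in dissociated bladder (4.34-fold, log2 2.12, SE 0.09, adjusted p = 2.4e-06), with little spread in either group. Ccl17 was at 0.563, 0.582 and 0.269 against 2.53, 1.85 and 2.98 CPM (5.44-fold, log2 2.44, SE 0.35, adjusted p = 0.00072, edgeR). The lowest dissociated library exceeded the highest intact one 3.53-fold for Ccl11 and 3.18-fold for Ccl17.

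The stromal Cxcl12 and Cxcl14 were already abundant in intact bladder. Cxcl12 was at 350.4, 316.1 and 320.0 CPM there and at 576.9, 504.2 and 476.2 CPM after dissociation (1.7-fold, log2 0.77, SE 0.10, adjusted p = 0.0005). Cxcl14 was at 244.4, 255.8 and 347.4 against 409.8, 311.5 and 602.3 CPM (1.69-fold, log2 0.76, SE 0.25, adjusted p = 0.033, edgeR), and its groups overlapped. The Cxcl14 call did not hold without intact library 1 (0.67, adjusted p = 0.12) or 2 (0.69, adjusted p = 0.11), nor without dissociated library 1 (0.83, adjusted p = 0.061) or 3 (0.45, adjusted p = 0.077). It was also lost without a filter on low counts (adjusted p = 0.065) and with scaling by library size alone (0.056), and neither Cxcl12 nor Cxcl14 passed a test against a log2 fold change of 1 (adjusted p = 1). Cxcl13 was at 3.25, 6.34 and 11.4 against 12.4, 17.98 and 8.85 CPM, with overlapping groups, and did not pass (log2 1.01, SE 0.42, adjusted p = 0.073). It passed with DESeq2 (adjusted p = 0.016) and without intact library 3 (1.52, adjusted p = 0.017).

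**Figure D3:**
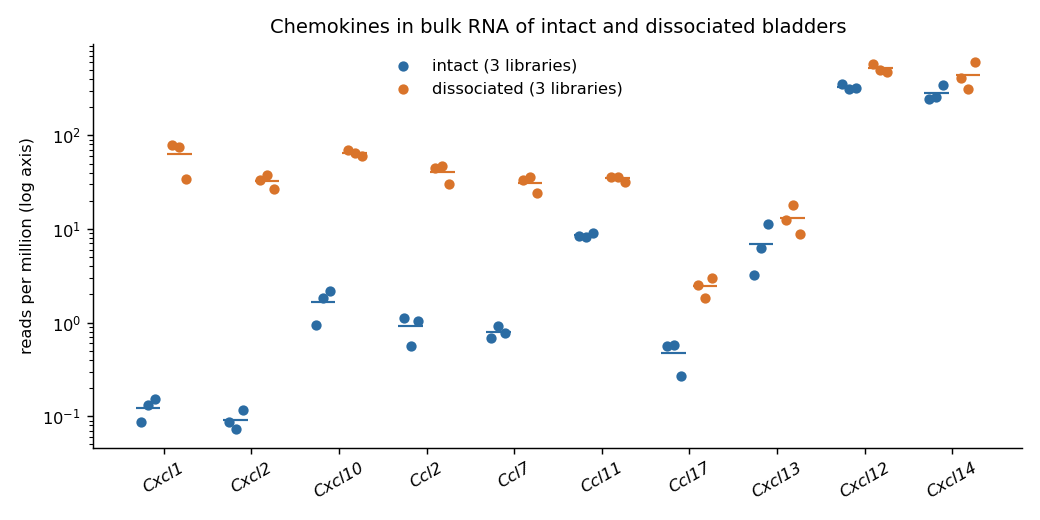
Level of each chemokine (reads scaled to 1000000, CPM, on a log axis) in the 3 intact and 3 dissociated bulk libraries, with 1 point per library. Cxcl1 and Cxcl2 lie at 0.0727 to 0.154 CPM in intact and at 26.7 to 78.6 CPM in dissociated libraries, while the groups overlap for Cxcl14 and Cxcl13.

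Other genes of the pathway moved in the same comparison. Of the 26 other chemokines 18 were tested, 12 rose and 3 fell, with a median log2 fold change of 1.01; Ccl3 (4.98) and Ccl4 (4.64), attractants of monocytes and T cells, and Ccl22 (2.98), the partner of Ccl17 at Ccr4, led the list. Of 22 receptors 19 were tested, 12 rose and 0 fell (median 1.27), among them Cxcr4 (2.86, adjusted p = 0.0023), Cxcr5 (2.53, adjusted p = 0.04, with overlapping groups), Ccr4 (1.81, adjusted p = 0.005) and Ackr3 (0.75, adjusted p = 0.016, edgeR). Ccr2 (0.24, adjusted p = 0.14) and Cxcr3 (0.07, adjusted p = 0.88) did not pass, and Cxcr2 and Ccr3 were too low to be tested. Cxcr5 was at 1.82, 3.56 and 4.27 CPM in intact and 7.76, 42.2 and 2.81 in dissociated libraries, whereas Cxcr4 was at 4.85, 10.3 and 7.77 against 34.7, 97.8 and 26.3. All 17 regulators of chemokine genes were tested and 15 rose (median 2.19), including the cytokines Il1b (6.92) and Tnf (4.24), the NF-kappaB feedback genes Tnfaip3 (4.00) and Nfkbiz (3.53), and Zfp36 (4.88), which destabilises cytokine mRNAs.

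Cell composition and stress genes moved with this comparison. The dissociation response list, 15 immediate early and heat shock genes, rose in 15 of 15 genes (median 4.88), and its summed level went from 423 to 604 CPM in intact to 17900 to 22400 in dissociated libraries. Smooth muscle markers fell in 10 of 10 genes (median -3.84), from 41400 to 43200 CPM summed to 2240 to 3390. Fibroblast markers rose in 10 of 10 (median 1.37), from 13100 to 16100 CPM to 23300 to 34700, and macrophage markers in 10 of 11 (median 0.57), from 875 to 978 CPM to 1120 to 1490. Dendritic markers went from 528 to 686 CPM to 1140 to 1580. Neutrophil markers summed to 3.99 to 6.02 CPM in intact and 9.61 to 12.4 in dissociated libraries, with Ly6g at 0. B cell markers summed to 9.18 to 74.5 CPM in intact and 16.9 to 521 in dissociated libraries (0 of 7 called), and T or NK markers to 19.1 to 42.9 and 51.9 to 167 (4 of 10 tested rose); dissociated library 2 was highest for both, as for Cxcr5 and Cxcr4. The part of these shifts in the rise of the chemokines and receptors was not tested.

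Single nuclei were then set against single cells of the same classes. There was 1 nuclei library, so that its own spread is unknown and every p-value of this comparison rests on the assumption that it varies like the cell libraries, which are of another preparation. Its 414 fibroblast-like nuclei formed 1 cluster led by Pi16, Pdgfra and C7, with no Car3 cluster, whereas the cells held both kinds. Of 12452 genes 24.5% passed (23.9% by DESeq2), with 8.66% higher and 15.8% lower in nuclei; of the 10 members 2 were lower and none was higher. Cxcl14 stood at 135.0 CPM (59 UMIs) in nuclei against 1624 to 10590 in the cell libraries (log2 -5.93, SE 1.17, adjusted p = 0.013, edgeR). That value lay within the 78.3 to 804.7 CPM of the Pi16 or Clec3b clusters of cells. CPM are scaled to total counts, whereas the fitted differences use edgeR's TMM scaling factors, so the 2 need not match. By CPM the mean of the cells was 34.7-fold above the nuclei for Cxcl14 and 2.11-fold for Cxcl12. In the fit these differences were 61.0-fold and 3.87-fold. Cxcl12 stood at 270.1 CPM (118 UMIs) against 311.6 to 828.3 (log2 -1.95, SE 0.52, adjusted p = 0.03), and did not pass without the 22-month male (-1.75, adjusted p = 0.051) or the 24-month library (-1.95, adjusted p = 0.059).

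Several members had few or no UMIs in fibroblast-like nuclei. Cxcl1, Ccl7, Cxcl2, Cxcl10 and Ccl17 had 0 UMIs. The upper end of the exact Poisson interval was then 8.44 CPM, and the floor used here was 6.87 CPM (3 counts). Against this floor the mean of the cell libraries was 34.3-fold higher for Cxcl1 (7.02-fold for the lowest library) and 33.6-fold higher for Ccl7 (7.29-fold). Against the upper end of the interval the means were at least 27.9-fold and 27.3-fold higher. These means lean on the second 12-month library. Without it, a setting chosen after the data were seen, they were 11.6-fold and 10.6-fold above the floor. For Cxcl2, Cxcl10 and Ccl17 the lowest cell libraries (2.53, 6.38 and 0 CPM) lay under the floor as well, so that 0 UMIs do not set the nuclei apart from those libraries. Ccl2 had 2 UMIs, a ratio of cells to nuclei of 44.1 with a counting interval of 12.2 to 364. The ratio was 14.1 without the second 12-month library and 6.19 for the lowest cell library. Ccl11 stood at 50.4 CPM (22 UMIs) against 89.6 to 317.5 CPM, and Cxcl13 had 1 UMI, a ratio of 15.9 (2.85 to 628), of 8.66 without the 22-month male library and of 4.05 for the lowest library. None of these passed in the full fit. Without the second 12-month library the log2 differences were -11.92 for Cxcl1, -11.77 for Ccl7, -1.81 for Ccl11 and -4.73 for Ccl2. Where nuclei held 0 UMIs, as for Cxcl1, Ccl7 and Cxcl10, the size of a fitted difference depends on the small count that edgeR adds. The folds above the floor do not depend on that count. The share of all genes that pass without it, or against the 12-month cell libraries alone, is not given here. For Cxcl10 the low cell libraries were the 2 male ones. Against the 12-month cell libraries alone, which have the age and sexes of the nuclei but leave 2 libraries for the spread, Cxcl10 (-9.58, adjusted p = 5.8e-05) and Cxcl13 (-2.95, adjusted p = 0.047) passed as lower. DESeq2 added 5 members, namely Cxcl1 (adjusted p = 0.0052), Cxcl10 (0.011), Ccl2 (0.025), Ccl11 (0.033) and Cxcl13 (0.034).

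**Figure D4:**
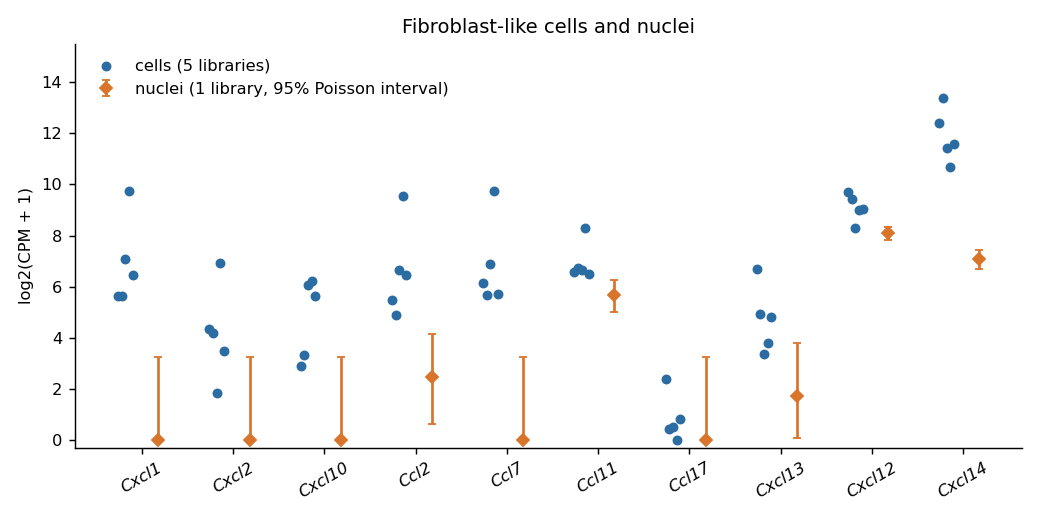
Level of each chemokine, as log2(CPM + 1), in fibroblast-like cells of the 5 whole-bladder cell libraries (points) and in fibroblast-like nuclei with its exact 95% Poisson interval, whose upper end is 8.44 CPM at 0 UMIs. Cxcl12 and Cxcl14 are seen in nuclei at 270.1 and 135.0 CPM, whereas Cxcl1, Cxcl2, Cxcl10, Ccl7 and Ccl17 have 0 UMIs there.

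In 1262 urothelial-like nuclei 35.4% of 13359 genes passed (38.2% by DESeq2), with 16.1% higher and 19.3% lower; 2 members were lower. Ccl2 had 0 UMIs against 2.40 to 8.95 CPM in cells (adjusted p = 0.0067, edgeR). The mean of the cell libraries was 3.92-fold above the floor of 3 counts and 3.19-fold above the upper end of the counting interval. Ccl7 had 2 UMIs (adjusted p = 0.024, edgeR). Its ratio of cells to nuclei was 8.71, with a counting interval of 2.41 to 71.9. The other 8 members did not pass; Cxcl1 (adjusted p = 0.065), Cxcl2 (0.13) and Cxcl10 (0.15) came nearest, and Cxcl12, Cxcl13, Cxcl14, Ccl11 and Ccl17 lay between 0.35 and 0.71. The 67 macrophage-like nuclei held 13 UMIs of Cxcl2, or 176.8 CPM against 913.7 to 3443 in cells, a ratio of 13.3 (7.76 to 24.9). They held 2 UMIs each of Ccl2 (ratio 53.1, 14.7 to 438) and Ccl7 (ratio 49.1, 13.6 to 406). The Ccl7 ratio was 32.0 without the first 12-month library and 24.3 for the lowest library. Blood endothelial-like nuclei held 27 UMIs of Cxcl12, or 297.6 CPM against 439.9 to 661.3. Beside these values, the dissociation response list was lower in 14 of 15 genes in fibroblast-like nuclei (median -5.30), at 1335 CPM summed against 26260 to 32460 in cells. Smooth muscle markers were higher in 5 of 10 genes in fibroblast-like nuclei (median 3.69) and in 10 of 10 in urothelial-like nuclei (median 6.23). Their part in the differences was not tested.

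The frozen sections showed the chemokines with no dissociation step. Over whole sections, Cxcl14 stood at 434.9 and 388.3 CPM at 14 months and at 662.2 and 636.5 at 22 months, Cxcl12 at 132.2 and 237.9 against 91.4 and 78.1, and Ccl11 at 20.2 and 25.6 against 10.3 and 4.20. The groups did not overlap for these 3 genes, nor for any other member except Ccl17. With 2 sections a group such a separation is common by chance. Cxcl13 was at 1.52 and 4.31 against 6.06 and 8.68 CPM, and Cxcl1 at 0.474 and 1.35 against 0.194 and 0.183. Cxcl2 was at 1.19 and 0.404 CPM (25 and 9 UMIs) at 14 months and at 0.0324 and 0.0457 CPM, 1 UMI each, at 22 months.

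Ccl2 was at 2.99 and 4.54 against 1.52 and 2.51 CPM, Ccl7 at 3.79 and 3.23 against 1.75 and 2.97, Cxcl10 at 1.47 and 1.53 against 0.583 and 1.28, and Ccl17 at 2.32 and 1.21 against 0.745 and 4.02. The values of Ccl17 overlapped between the ages. Separation of 2 sections from 2 is common by chance, and its share over all genes was not computed. With 2 sections a group, edgeR passed 0 of 14995 genes (0%); before adjustment 2488 lay under 0.05, and by DESeq2 426 passed (2.84%). Of the 9 members tested (Cxcl2 was too low), 0 passed, and 5 lay under 0.05 before adjustment.

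These 5 were Cxcl14 (log2 0.72, SE 0.11, adjusted p = 0.098), Cxcl1 (-2.18, SE 0.65, adjusted p = 0.21), Ccl11 (-1.58, SE 0.43, adjusted p = 0.23), Cxcl12 (-1.06, SE 0.30, adjusted p = 0.25) and Cxcl13 (1.40, SE 0.51, adjusted p = 0.29, edgeR). DESeq2 called 3 members, Cxcl14 (adjusted p = 1.8e-06), Ccl11 (0.0011) and Cxcl12 (0.0011). Without the first 22-month section, edgeR passed Ccl11 (-2.34, adjusted p = 0.01) and Cxcl14 (0.73, adjusted p = 0.048); this leaves 1 section of 22 months, assumed to vary like those of 14 months. Since edgeR called no gene at 22 against 14 months, no marker list could hold a called one. The median log2 differences were 3.55 for plasma cell, 2.69 for B cell, 1.45 for T or NK and -1.98 for dissociation response genes, and their part was not tested. Which pieces of the bladder each section covers is not given by the labels.

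Within sections, urothelium-rich spots were compared with muscle-rich spots, with the section as a block. Of 14227 genes 75.4% passed, with 38.0% higher and 37.4% lower in urothelium-rich spots, the background for the members' count. Of the 8 members tested, 5 were lower and none higher, with a median of -2.22 against 0.03 over all genes. Ccl11 stood at 2.63, 1.99, 1.204 and 0.923 CPM in urothelium-rich spots of the first and second 14-month and first and second 22-month sections, against 39.0, 59.3, 24.4 and 10.3 CPM in muscle-rich spots (21.0-fold lower; log2 -4.39, SE 0.19, adjusted p = 2.4e-09, edgeR). Cxcl12 stood at 43.8, 55.2, 33.7 and 23.3 CPM against 207.2, 428.9, 135.2 and 125.9 (5.7-fold lower; log2 -2.51, SE 0.14, adjusted p = 3.6e-08). Ccl2 (log2 -3.23, SE 0.39, adjusted p = 1.5e-05), Ccl7 (-3.12, SE 0.53, adjusted p = 0.00035) and Cxcl13 (-1.92, SE 0.41, adjusted p = 0.0012) were lower as well. In each of the 4 sections Ccl11, Cxcl12, Ccl2 and Ccl7 were higher in the muscle-rich spots. The muscle-rich spots take in regions led by macrophage genes such as Ccl8 and Cd209f, and regions led by Slpi and Msln.

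Cxcl14 did not follow them. It stood at 503.6, 307.8, 362.7 and 285.4 CPM in urothelium-rich spots and at 246.3, 172.5, 359.0 and 513.2 in muscle-rich spots, higher on the urothelial side in 3 sections and lower in the second 22-month section (log2 0.17, SE 0.33, adjusted p = 0.66). Without that section it passed as higher (0.55, adjusted p = 0.022), and without the first or second 14-month section its sign turned (-0.09, adjusted p = 0.83 and -0.04, adjusted p = 0.94). In the full fit Ccl17 did not pass (-0.60, adjusted p = 0.28), and Cxcl1 and Cxcl2 were too low to be tested. Without the second 22-month section Ccl17 passed as lower (-1.17, adjusted p = 0.042, edgeR). Cxcl10 did not pass (0.43, adjusted p = 0.37). Fibroblast markers were lower in 10 of 10 and macrophage markers in 10 of 11 genes on the urothelial side.

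Single regions held the peaks. Cxcl14 was highest in regions of 47 to 99 spots, at 1062 and 1223 CPM in the 14-month and 1665 and 1514 CPM in the 22-month sections; Car3 was among the 6 leading genes of 3 of these regions, and the fourth, in the first 22-month section, was led by S100a9, S100a8 and Nrn1. Ccl11 was highest at 68.5 CPM in 43 spots led by Cytl1, Lrg1 and haemoglobin genes in the first 14-month section, where Ccl7 (26.2 CPM) and Ccl2 (13.1 CPM) peaked too. In the second 14-month section Ccl11 (78.5 CPM), Cxcl12 (645.8 CPM) and Ccl2 (24.8 CPM) were highest in 164 spots with Ccl8, Cd209f, Folr2 and Fcna, genes of resident macrophages. These spots count among the muscle-rich ones. They held 174 of the 570 Ccl11, 1431 of the 5299 Cxcl12 and 55 of the 101 Ccl2 UMIs of that section. In the first 22-month section a like region of 82 spots, led by Cd209f, Ccl8 and Pf4, had Ccl11 at 33.4 and Cxcl12 at 204.6 CPM. In the second 22-month section Cxcl13 reached 94.7 CPM in 59 plasma-rich spots, which held 100 of its 190 UMIs, and Cxcl10 reached 11.4 CPM there with 12 of 28 UMIs. The Ccl17 of that section was highest at 15.48 CPM in the Car3-containing collagen-rich region, with 42 of 88 UMIs.

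**Figure D5:**
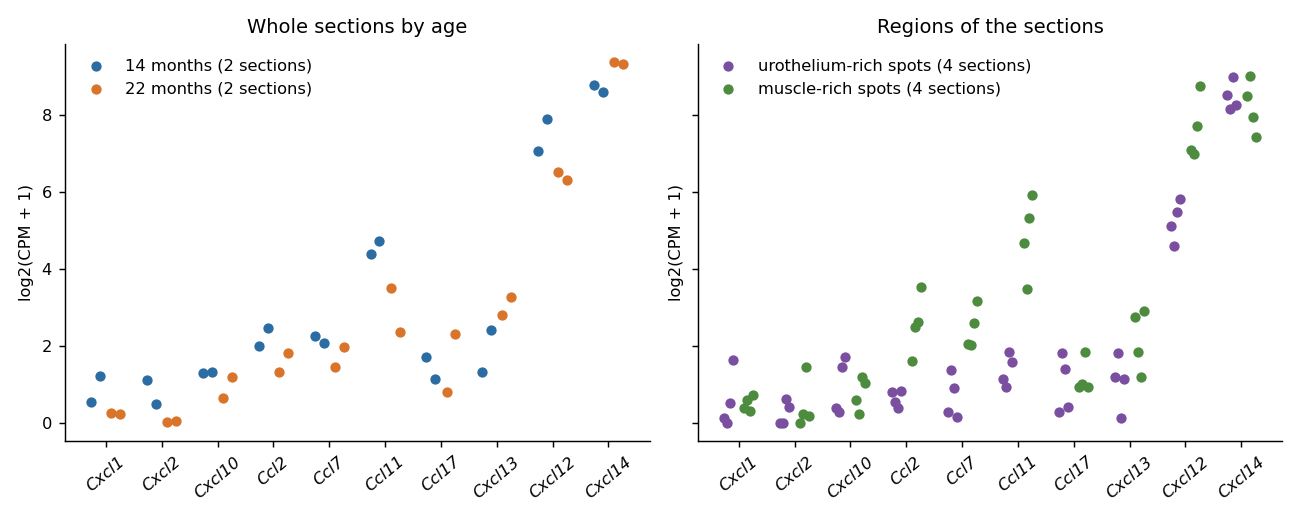
Level of each chemokine, as log2(CPM + 1), over whole sections of 14 and 22 months (left, 2 sections each) and in urothelium-rich and muscle-rich spots of the 4 sections (right), with 1 point per section. Ccl11 and Cxcl12 lie higher in muscle-rich than in urothelium-rich spots of every section, and Cxcl14 lies at 388.3 and 434.9 CPM at 14 months and at 636.5 and 662.2 CPM at 22 months.

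Age was also compared in fibroblast-like cells, with the 22-month and 24-month libraries against those of 3 and 12 months and with sex (all male or mixed) in the model. By edgeR 0 of 11740 genes passed (0%), 313 lay under 0.05 before adjustment, and by DESeq2 8 passed (0.0681%). Of 9 members tested, 0 passed and 2 lay under 0.05 before adjustment: Cxcl13 (log2 1.60 higher in the older, SE 0.25, adjusted p = 0.23) and Cxcl10 (-0.54, SE 0.21, adjusted p = 1). Cxcl13 passed with DESeq2 (1.57, adjusted p = 0.025) and without the 24-month library (1.87, adjusted p = 0.025), where the older bladders are the 22-month male library alone, the highest for Cxcl13, assumed to vary like the younger ones. Cxcl12 (0.30, SE 0.25), Cxcl14 (-0.12, SE 0.35) and Ccl11 (-0.74, SE 0.68) had an adjusted p of 1, and Ccl17 was too low to be tested. Ccl2, Ccl7, Cxcl1 and Cxcl2 had standard errors of 1.52 to 2.00, so that large differences would not have been detectable.

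Genes with the most similar pattern were found over 62 sums of a class in a library, among 9658 genes, as a description with no p; the sums share libraries, depth and classes. Ccl2 and Ccl7 were each other's nearest gene (Pearson r = 0.886). Cxcl14 was nearest to Car3 (r = 0.893) and Ctsk (0.812), Ccl11 to Pdgfrl (0.877) and Ms4a4d (0.867), and Cxcl12 to Snai1 (0.792) and Tcf4 (0.753). Ccl17 was nearest to Ccl22 (0.865), Cxcl2 to Igsf6 (0.837) and Lair1 (0.825), and Cxcl13 to Ctsb (0.783) and Hexa (0.738). Cxcl1 was nearest to the immediate early genes Egr1 (0.8), Zfp36 (0.782) and Jun (0.771), which are in the dissociation response list. Cxcl10 had the weakest match (Mxd1, 0.68).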

How the data were processed

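The deposited tables hold counts: UMI counts per barcode and gene for cells, nuclei and spots, and read counts per gene symbol for bulk RNA. The submitters' processing notes name bcl2fastq, Cell Ranger, Space Ranger, Subread, featureCounts and mm10, without versions; the strand setting of the read counting is not given in the sources used here. Members and gene lists were chosen with earlier results of these data known.

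Barcodes under 500 UMIs or over 20% mitochondrial UMIs were dropped (the male tables hold 0 mitochondrial counts, so that limit removed none of theirs), and spots under 500 UMIs likewise. Doublets were scored against simulated ones as in Scrublet, and the top-ranked 8 to 660 per library, at a rate of 0.8% for every 1000 barcodes, were discarded. Each library was clustered without chemokine genes, by the igraph form of the Leiden method in scanpy 1.11.5. Settings were 2000 variable genes, 30 principal components, 15 neighbours and resolution 1. Clusters were named from marker lists. The handling of clusters that met several lists, and of clusters with few UMIs, was decided with the clusters in view, so a difference from the study may come from rebuilt names. Regions of spots were named when at least 75% of a list lay above the section.

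Counts were summed per class and library or per section, without mitochondrial genes, and tested with edgeR 4.0.16 in R 4.3.3 (quasi-likelihood, robust, TMM, filterByExpr, two-sided, Benjamini-Hochberg over all genes tested, threshold 0.05). A class entered with at least 20 cells in at least 3 libraries, or 50 cells for nuclei. CPM are counts of a gene in 1000000 of the library, class or section. The scripts were tested on simulated data. All 10 members are named in every comparison tested, receptors of the members with their values in the class and bulk comparisons, and of each other list up to 6 called genes with the largest bulk change; similar genes are the 3 with the highest correlation of log2(CPM + 1), among genes averaging at least 10 CPM. Alternatives were DESeq2 1.42.0, other scaling, filters, clustering and naming, and leaving out each library.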

Additional observations from a re-analysis of the deposited data

Results flagged for a closer look

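Of 40 class levels tested, each over 4 or 5 whole-bladder cell libraries, 11 had 1 library set apart. Its gap to its nearest neighbour, as a share of the group's range, lay above Dixon's 95% critical value for a group of that size. Chance passes that value in about 1 in 20 groups of normally distributed values. The levels were CPM without a log, which can be skewed, and every library set apart was the highest of its group. The chance rate for such levels was not computed. In fibroblast-like cells the second 12-month library was the highest of 5 for Cxcl1 (861.1 CPM, the next 133.1), Cxcl2 (121.6, the next 19.2), Ccl2 (751.3, the next 99.4), Ccl7 (863.3, the next 118.8) and Ccl11 (317.5, the next 105.0). These 5 values come from the same 143 cells.

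The 22-month male library was the highest for Ccl17 in dendritic-like cells (1130 CPM, the next 427.3), in fibroblast-like cells (4.21, the next 0.755) and in urothelial-like cells (5.41, the next 0.857). It was also the highest for Cxcl13 in fibroblast-like cells (102.6 CPM, the next 29.7) and for Ccl11 in macrophage-like cells (6.69 CPM, with 0 in the other 3 libraries). For Ccl11 the gap then equals the whole range whatever its size. The first 12-month and the 24-month library held only 23 and 37 macrophage-like cells. The first 12-month library was the highest of 4 for Ccl7 in macrophage-like cells (2732 CPM, the next 1003), a value from 23 cells.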

How the results depend on the processing

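Of 968 alternative values of the members' results, 864 kept their direction and their side of the threshold; of the 600 for results that passed, 538 did, 60 no longer passed and 2 changed sign. The bulk count of 9 members stayed between 8 and 10 when a library was left out. Correlations between intact and dissociated libraries did not settle whether the replicate numbers pair them. They were 0.203, 0.344 and -0.0702 for the same number and -0.437 to 0.277 for different numbers. With the replicate block the count was again 9.

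Counts of members past the threshold moved as follows. For fibroblast-like nuclei the 2 members became 7 with DESeq2, 4 against the 12-month cell libraries alone and 1 to 6 when a cell library was left out. For urothelial-like nuclei the 2 became 4 with DESeq2, adding Cxcl1 and Cxcl2. Cxcl1 also passed with doublets kept, and Cxcl10 against the 12-month cell libraries alone. For the sections the 0 became 3 with DESeq2 and 2 without a filter on low counts, and 0 to 2 when a section was left out. For age in fibroblast-like cells the 0 became 1 with DESeq2 and 1 without a filter, and 0 to 1 when a library was left out. The 27 other chemokines and receptors called in bulk became 9 with a log2 fold-change minimum of 1. The 31 calls over the 6 classes became 49 without a filter on low counts, and 23 to 32 when a library was left out. The share of all genes past the threshold is given above only for the main fits and, in part, for DESeq2. The counts have no such background under the other settings. The cause of these moves was not tested.

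Signs changed for these results. Ccl17 in macrophage-like cells turned to 3.02 with at least 1000 UMIs per cell, and ranged from -2.14 to 0.36 when a library was left out. Against the 12-month cell libraries alone, urothelial-like nuclei gave 0.97 for Cxcl12 and 0.51 for Ccl11, and Cxcl12 ranged from -1.04 to 0.14 when a library was left out. Leaving out sections gave -1.22 to 1.28 for Ccl17 between ages and -0.09 to 0.55 for Cxcl14 between regions. Leaving out libraries in the age comparison gave -2.58 to 0.11 for Cxcl1, -2.57 to 0.66 for Cxcl2, -0.89 to 0.44 for Cxcl14, -2.35 to 0.72 for Ccl2 and -3.31 to 0.55 for Ccl7. Counts of nuclei limit the rest: 3 UMIs correspond to 6.87 CPM in fibroblast-like nuclei and to 40.8 CPM in macrophage-like nuclei, and 2 sections of an age leave few degrees of freedom.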
